A study of Mus musculus with 3 samples.

Results

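The miR-130 and miR-301 family of microRNAs (miRNAs) was followed in retinas of C57BL/6 mice (C57BL/6J in the study's methods) aged 1, 7 or 17 days (called P1, P7 and P17, in which order values are listed). Its members were the rows named as a 5p or 3p form of miR-130a, miR-130b, miR-301a or miR-301b, which gave 8 of the 1915 mature miRNAs listed. Each age was 1 library, made from the retinas of 5 eyes pooled into one sample of total RNA, and no group differed by genotype or treatment. No library was replicated, so differences between ages have no check against replicate spread, and the intervals given are for the error of counting alone (PCR copies without molecular identifiers are not independent molecules). With 1 library per age, a difference between ages and a difference between library preparations cannot be told apart.

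A miRNA hairpin is cut into 2 strands, the 5p and the 3p form. The strand loaded into an Argonaute protein pairs with messenger RNAs through its seed, bases 2 to 8, and lowers their output. In this family the 3p forms share a seed and are the strands usually studied. MiR-130a is known in endothelial cells as a repressor of the homeobox genes GAX and HOXA5, which restrain vessel growth. The postnatal mouse retina is a tissue in which progenitors stop dividing, photoreceptors mature and blood vessels grow over and into the neural layers.

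Mature sequences from RefSeq (GRCm38.p6) were found for 7 of the 8 members, and miR-301b-3p had no entry. The prefix mmu stands for Mus musculus. They are shown 5′ to 3′ with the seed in capitals, because the family is defined by the seed of the 3p forms and because the seeds of the 5p forms differ.
mmu-miR-130a-3p: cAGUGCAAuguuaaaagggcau
mmu-miR-130b-3p: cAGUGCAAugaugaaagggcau
mmu-miR-301a-3p: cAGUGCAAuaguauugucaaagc
mmu-miR-130a-5p: gCUCUUUUcacauugugcuacu
mmu-miR-130b-5p: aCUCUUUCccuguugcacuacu
mmu-miR-301a-5p: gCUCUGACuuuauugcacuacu
mmu-miR-301b-5p: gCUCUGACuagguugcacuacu

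The 3p forms shown have the seed AGUGCAA, and the Mir301b hairpin also holds these letters once. MiR-130a-3p and miR-130b-3p were identical at 20 of 22 positions and differed by U11A and A13G, counted from 1 at the 5′ end with the base of miR-130a-3p first. MiR-301a-3p matched miR-130a-3p at 12 of 22 positions and was matched by the Mir301b hairpin at 22 of its 23. Among the 5p forms only miR-301a-5p and miR-301b-5p shared a seed, CUCUGAC, and they differed by U10A, U11G and A12G with the base of miR-301a-5p first. Reads of such close copies could have been split or shared by the authors' counting, so the separate values of miR-130a-3p and miR-130b-3p, and of the miR-301a and miR-301b forms, are uncertain to that extent.

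The 4 hairpins came from 3 places in the genome (GRCm38, the build named mm10 in the submitters' notes). Mir130a lies on the minus strand of chromosome 2 from 84741115 to 84741178 and overlaps no other annotated gene in GENCODE M21. Mir301, which gives miR-301a, lies on the plus strand of chromosome 11 from 87113004 to 87113089, inside the gene Ska2 on the same strand and in none of its exons. Mir130b, from 17124061 to 17124142, and Mir301b, from 17124400 to 17124496, lie on the minus strand of chromosome 16 with 257 bases between them. Both are inside the gene 2610318N02Rik on the same strand and overlap none of its exons.

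The libraries held between 11426320 and 12759995 miRNA reads, so that 1 read was worth 0.0784 to 0.0875 RPM, the depth-scaled read number given by the authors, which is a share of the miRNA reads of a library. The limit of detection, taken as 3 reads, was 0.235 to 0.263 RPM. The tissue label was compared with marker miRNAs. The photoreceptor miRNAs miR-183-5p, miR-96-5p and miR-182-5p together held 77854, 304394 and 301141 RPM, and the neural miR-9-5p and miR-124-3p held 145803, 127817 and 86788 RPM. These 2 neural miRNAs went opposite ways, since miR-9-5p went from 144259 to 125762 and 74010 RPM and miR-124-3p from 1544 to 2055 and 12777 RPM. All 8 family members passed the abundance filter (mean RPM of the 3 libraries no lower than 1), as did 648 miRNAs in all. A change is given as a difference of log2(RPM + 1), a scale on which rare miRNAs appear to change less than they did, and a miRNA was called when it changed over 2-fold on that scale.

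The whole family was lower at each later age. Its 8 members together took 0.406%, 0.129% and 0.0465% of the miRNA reads. The 4 3p forms, summed, went from 823 RPM (95% Wilson interval 807 to 840) through 247 RPM (239 to 256) to 98.9 RPM (93.3 to 105). This is 3.33-fold lower at P7 than at P1 (exact binomial interval 3.20 to 3.47), 2.50-fold lower at P17 than at P7 (2.33 to 2.67) and 8.32-fold lower at P17 than at P1 (7.83 to 8.86). Which step was larger depended on the scaling. The summed 3p forms changed by -1.73 to P7 and -1.31 after it with RPM. These changes were -0.77 and -1.23 after the median-of-ratios scaling described with the counts of members. The 4 5p forms held more reads than the 3p forms at every age, with 3235, 1041 and 366 RPM, and were 8.83-fold lower at P17 than at P1 (8.56 to 9.12). In a bulk tissue, fewer cells of a type and less of the RNA per cell cannot be told apart.

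Among the 3p forms, mmu-miR-130a-3p was the most abundant at every age. Its reads numbered 4850, 1742 and 733, which is 424.5, 136.5 and 62.9 RPM. Its Wilson intervals, 413 to 437, 130 to 143 and 58.5 to 67.6 RPM, did not overlap. Its log2(RPM + 1) changes were -1.63 for the first step and -1.11 for the second, but -0.67 and -1.03 after median-of-ratios scaling.

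The level of mmu-miR-130b-3p rested on 2080, 644 and 167 reads, which is 174 to 190 RPM at P1 by its Wilson interval, then 50.5 and 14.3 RPM. It was second among the 3p forms at P1 and P7, and its changes were -1.83 and -1.75 with RPM but -0.88 and -1.68 after the median-of-ratios scaling described with the counts of members. At P17 its interval, 12.3 to 16.7 RPM, overlapped that of miR-301a-3p, 14.1 to 18.8 RPM, so these neighbours could not be ordered there.

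For mmu-miR-301a-3p there were 1051, 381 and 190 reads, or 92.0, 29.9 and 16.3 RPM. It had the smallest changes of the 8 members from P7 to P17 (-0.83) and from P1 to P17 (-2.43). It was within counting error of miR-301a-5p (-0.90) from P7 to P17. Which step held more of its change depended on the scaling. The changes were -1.59 to P7 and -0.83 after it for RPM but -0.65 and -0.76 after median-of-ratios scaling. For miR-130a-3p, miR-130b-3p, miR-130a-5p and miR-301b-5p too, the larger step was the first with RPM and the second after that scaling. With RPM and no pseudocount, the counting intervals of the first and second steps overlapped for miR-130b-3p, miR-130a-5p and miR-301b-5p. The order of their steps with RPM was thus within counting error.

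Reads of mmu-miR-301b-3p fell from 1423 to 385 and then 63, or 125, 30.2 and 5.40 RPM. It stood above miR-301a-3p at P1, was level with it at P7, where the intervals of 27.3 to 33.3 RPM and 27.0 to 33.0 RPM overlapped, and was below it at P17. Its change from P1 to P17, -4.29, was the largest of the 3p forms, and without a pseudocount the log2 ratio of the P17 to the P1 library was -4.53 (exact binomial interval -4.91 to -4.16).

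The 5p forms covered a wider range. The form mmu-miR-130b-5p was the most abundant member of the family at every age, with 27348, 11081 and 3358 reads, or 2393, 868 and 288.0 RPM. Ranked among all miRNAs of a library, it went from place 48 to 70 and 120. Its changes were -1.46 to P7, the smallest of the family at that step, and -1.59 after it with RPM, but -0.50 and -1.51 after median-of-ratios scaling. The counting interval of its change to P7 overlapped that of miR-301a-3p.

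In turn, mmu-miR-301a-5p had 6801, 1712 and 832 reads, or 595, 134 and 71.4 RPM. With RPM its fall came mostly before P7, with a change of -2.14 to that age and -0.90 after it. After median-of-ratios scaling the steps were closer, at -1.18 and -0.82. At P7 its interval, 128 to 141 RPM, overlapped that of miR-130a-3p.

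For mmu-miR-301b-5p the reads were 2532, 418 and 62, or 222, 32.8 and 5.32 RPM, and the 3 levels were well apart. Its changes of -2.72 to P7, -2.42 after it and -5.14 in all were the largest of the family over each interval. It was within counting error of miR-301b-3p (-2.28) from P7 to P17. Ranked by the size of the change from P1 to P17, it was in place 6 of the 648 miRNAs, miR-301b-3p in place 13 and the other members between places 26 and 116.

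The rarest member was mmu-miR-130a-5p, with 288, 74 and 19 reads, or 25.2, 5.80 and 1.63 RPM. Its log2 ratio of P17 to P1 without a pseudocount was -3.95, with an interval of -4.70 to -3.28 that reflects the 19 reads at P17.

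**Figure D1:**
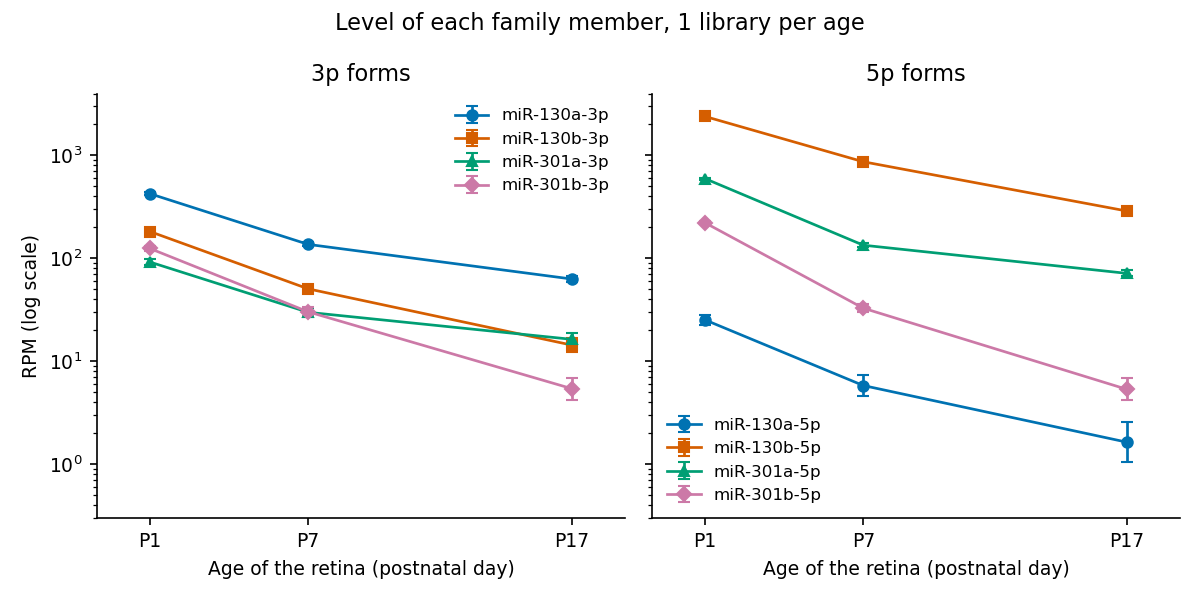
RPM of each family member (vertical axis, log scale) against the age of the retina in days (P1, P7 and P17), with the 3p forms on the left and the 5p forms on the right. Points are single libraries, and bars are 95% Wilson intervals of counting error. Every line falls at both steps, the miR-301b forms to 5.40 and 5.32 RPM, and miR-130b-5p lies highest, at 2393, 868 and 288.0 RPM.

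From P1 to P7 all 8 members were over 2-fold lower, beside 44.8% of the 648 miRNAs past the filter (3.09% were over 2-fold higher). The median change of the members was -1.89 against -0.87 for all miRNAs, and relative to the median of all miRNAs the members changed by -0.59 (miR-130b-5p) to -1.85 (miR-301b-5p). Falls were thus common at this step. Their number changed when the libraries were scaled by median-of-ratios size factors, under which the typical miRNA does not move (median of all miRNAs -0.04), and 11% of miRNAs were over 2-fold lower and 9.57% higher. Under that scaling all 8 members were still lower at P7, but only 4 of them over 2-fold. These were miR-130a-5p (-1.06), miR-301a-5p (-1.18), miR-301b-3p (-1.06) and miR-301b-5p (-1.77).

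From P7 to P17 the median of all miRNAs was near 0 (-0.05), and 11.6% were over 2-fold lower and 14% higher. Here 6 of the 8 members were over 2-fold lower, and the median change of the members was -1.48. The exceptions were both forms of miR-301a, with -0.83 for the 3p and -0.90 for the 5p form. Without a pseudocount their counting intervals, -1.13 to -0.62 and -1.03 to -0.79, reached past -1, the 2-fold limit. So did that of miR-130a-3p, which was called (-1.25 to -0.99), so these 3 forms were not told apart by the limit. The same number, 6, was over 2-fold lower with median-of-ratios size factors, where 10.6% of all miRNAs were.

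A fall of over 2-fold at each of the steps was seen in 6 of the 8 members, beside 8.8% of all miRNAs, and in 3 of them with median-of-ratios size factors, beside 2.93%. From P1 to P17 all 8 were over 2-fold lower, beside 46.8% of all miRNAs (10.5% were higher), and all 8 were over 4-fold lower, beside 21.8%. After median-of-ratios scaling all 8 remained over 2-fold lower, beside 23.9% lower and 25.5% higher. Over this interval the median change of the members was -3.18 against -0.91 for all miRNAs, and -2.22 against 0.01 after median-of-ratios scaling.

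**Figure D2:**
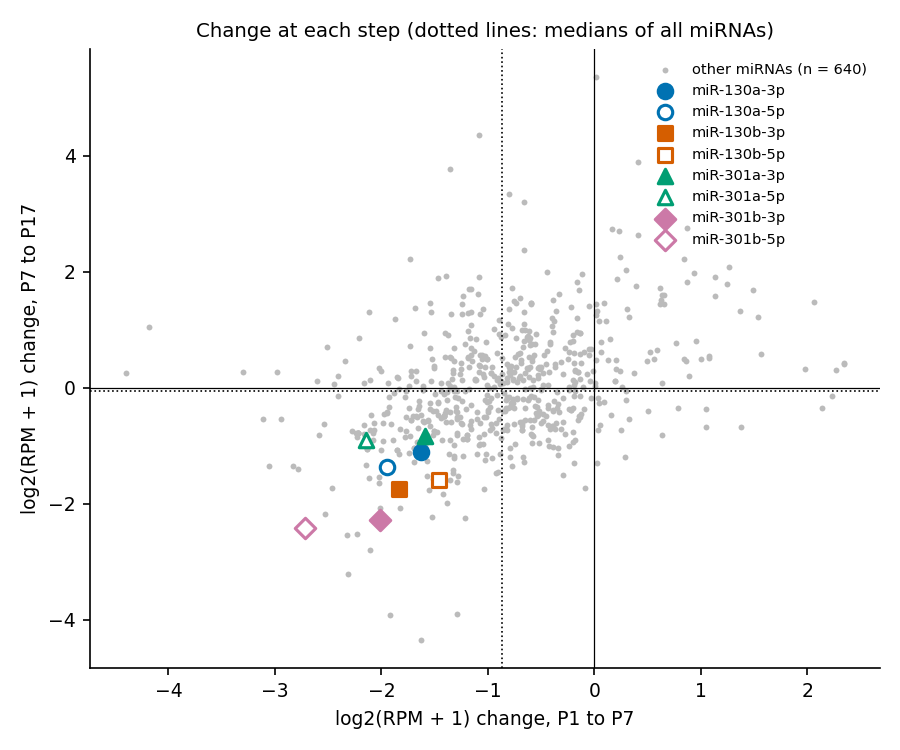
Change of log2(RPM + 1) over the first step, P1 to P7 (horizontal axis), and over the second, P7 to P17 (vertical axis), for the 8 members (filled symbols, 3p forms, and open symbols, 5p forms) and for the other miRNAs past the filter (grey points). Dotted lines mark the medians of all 648 miRNAs, -0.87 and -0.05. All 8 members lie below and to the left of both medians, miR-301b-5p farthest at -2.72 and -2.42.

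The make-up of the shared seed shifted with age. This comparison is within libraries and does not depend on the scaling. The share of miR-130a-3p in the summed 3p reads grew from 51.6% (Wilson interval 50.6 to 52.6) through 55.3% (53.5 to 57.0) to 63.6% (60.8 to 66.3). MiR-301b-3p went the other way, from 15.1% (14.4 to 15.9) to 12.2% (11.1 to 13.4) and 5.46% (4.29 to 6.93). MiR-130b-3p gave 22.1%, 20.4% and 14.5%, and miR-301a-3p gave 11.2%, 12.1% and 16.5%, with intervals that overlapped between P1 and P7 and not between P7 and P17 for either form. Within the 5p forms miR-130b-5p took 74.0%, 83.4% and 78.6% of the reads, and miR-301b-5p fell from 6.85% to 3.15% and 1.45%.

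**Figure D3:**
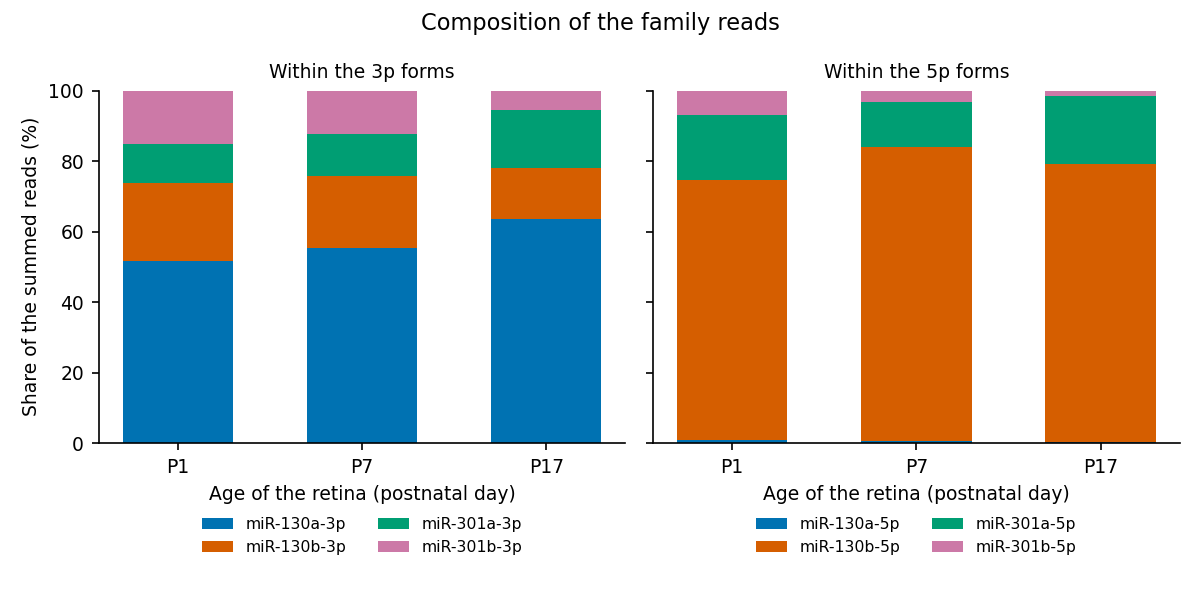
Share of each member in the summed reads of the 3p forms (left) and of the 5p forms (right), in percent, for the library of each age. MiR-130a-3p grows from 51.6% to 63.6% of the 3p reads while miR-301b-3p shrinks from 15.1% to 5.46%, and miR-130b-5p holds over 70% of the 5p reads at every age.

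The neighbouring hairpins Mir130b and Mir301b did not keep a fixed ratio. For each read of miR-130b-3p there were 0.684, 0.598 and 0.377 reads of miR-301b-3p, a log2 change of -0.86 from P1 to P17 (exact conditional interval -1.31 to -0.42). For the 5p forms the ratio was 0.0926, 0.0377 and 0.0185, a log2 change of -2.33 (-2.72 to -1.96). Between the close copies, the ratio of miR-301b-3p to miR-301a-3p went from 1.35 through 1.01 to 0.332, a log2 change of -2.03 (-2.48 to -1.59). The 5p forms of the same hairpins gave -2.32 (-2.72 to -1.94). From P1 to P17 both forms of miR-301b thus fell more than those of its neighbour and of its copy, beyond counting error. For miR-301b-3p against miR-130b-3p, the change from P1 to P7 alone, -0.19 (-0.41 to 0.02), was within counting error. For miR-301a-3p and miR-130a-3p, from different chromosomes, the ratio was 0.217, 0.219 and 0.259, a log2 change of 0.26 (0.00088 to 0.51). Their 5p forms had a ratio of 23.6, 23.1 and 43.8, a log2 change of 0.89 with a wide interval (0.21 to 1.65).

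The arm with more reads differed between the hairpins. At P1 the miR-130a hairpin gave 16.8 reads of the 3p form for each 5p read. The miR-130b hairpin gave 13.1 reads of the 5p form for each 3p read, miR-301a gave 6.47 and miR-301b gave 1.78. On the log2 scale these 5p to 3p ratios were -4.07, 3.72, 2.69 and 0.83. For the 190 hairpins whose arms both passed the filter and were read in every library, the median was 0.68 at P1, and 55.3% had more 5p than 3p reads.

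The arm ratio is also free of the scaling. Between the first and last age the log2 ratio of 5p to 3p rose by 0.61 for miR-130b (exact conditional interval 0.38 to 0.85), while it changed by -1.20 for miR-130a (-1.96 to -0.51), by -0.56 for miR-301a (-0.81 to -0.31) and by -0.85 for miR-301b (-1.39 to -0.32). None of these intervals held 0. The family thus had 3 hairpins that moved toward the 3p form and 1 that moved toward the 5p form. Of the 190 hairpins, 56.8% moved toward the 5p form. All of these changes lay in the middle 90% of the 190 hairpins, -1.90 to 1.77, around a median of 0.16. For miR-301a and miR-301b the shift lay before P7, with -0.53 and -0.71. Their later changes of -0.04 (-0.32 to 0.25) and -0.14 (-0.71 to 0.43) were within counting error. The later changes of miR-130a, -0.71 (-1.53 to 0.04), and miR-130b, 0.22 (-0.03 to 0.49), were within counting error too. Before P7 these hairpins changed by -0.48 (-0.88 to -0.10) and 0.39 (0.26 to 0.52). At P17 the miR-301b hairpin gave 62 reads of the 5p and 63 of the 3p form, and the miR-130b hairpin gave 20.1 reads of the 5p form for each 3p read.

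**Figure D4:**
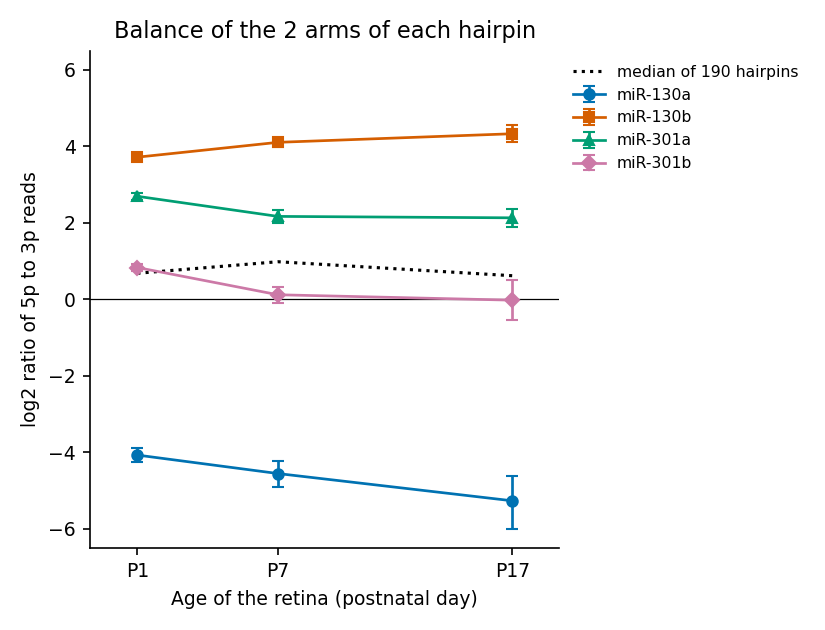
Log2 ratio of 5p to 3p reads (vertical axis) of the 4 family hairpins against the age of the retina in days, with exact 95% binomial intervals of counting error and 1 library per age. The dotted line is the median of 190 hairpins. MiR-130b rises from 3.72 to 4.33 and the other hairpins fall, miR-130a from -4.07 to -5.27.

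The seed AGUGCAA was present in 7 of the 1623 listed miRNAs that had a RefSeq sequence (0.431%). Besides miR-130a-3p, miR-130b-3p and miR-301a-3p these were miR-130c, miR-721, miR-6341 and miR-6389, which had 0 reads at every age and so were not above the level of 0.235 to 0.263 RPM that 3 reads represent. Among the miRNAs with a sequence, reads with this seed came from those 3 family forms alone. The seed CUCUGAC was found in miR-301a-5p and miR-301b-5p alone, and CUCUUUU in miR-130a-5p alone. CUCUUUC, the seed of miR-130b-5p, was shared with miR-7014-3p, which had 0 reads.

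Some abundant miRNAs have a seed that overlaps AGUGCAA with a shift of 1 base. MiR-19a-3p and miR-19b-3p, of the miR-17-92 cluster, hold GUGCAAA, and miR-148a-3p, miR-148b-3p and miR-152-3p hold CAGUGCA. One of each kind is shown for comparison with the family sequences above, with the seed in capitals.
miR-19b-3p: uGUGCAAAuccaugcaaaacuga
miR-148a-3p: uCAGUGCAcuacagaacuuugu

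The miR-19 forms summed to 2008, 1998 and 754 RPM, so that they were level at the first step and 2.65-fold lower at the second (exact binomial interval 2.59 to 2.72), beside 2.50-fold for the summed 3p forms of the family. The miR-148 and miR-152 forms summed to 31641, 21344 and 18419 RPM and were 1.72-fold lower at P17 than at P1 (1.71 to 1.73), where the family 3p forms were 8.32-fold lower. After median-of-ratios scaling miR-19a-3p and miR-19b-3p were higher at P7 than at P1, by 0.87 and 0.99, unlike any family member. Of these 5 relatives 3 were over 2-fold lower at P17 than at P1, beside 46.8% of all miRNAs, and none after median-of-ratios scaling, beside 23.9%. One of them, miR-152-3p, changed by -1.84 from P1 to P7, more than miR-130a-3p, miR-130b-5p or miR-301a-3p and about as much as miR-130b-3p (-1.83).

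The miRNAs with the miR-17 seed, which target cell cycle inhibitors, were also lower at each step. All 6 of their 5p forms were over 2-fold lower each time, beside 44.8% and 11.6% of all miRNAs (2 of them at the first step after median-of-ratios scaling, beside 11%), with median changes of -1.77 before P7 and -3.34 after it. The medians of the family 3p forms were -1.73 and -1.43. The endothelial miR-126a-3p and miR-126a-5p and the mural cell miRNAs miR-143-3p and miR-145a-5p moved in the other direction. All 4 were over 2-fold higher at P17 than at P1, by 2.69 to 3.04, beside 10.5% of all miRNAs, and their summed level was 1456, 4019 and 10022 RPM. With 1 library per age no test of these differences between lists could be made.

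The miRNAs outside the family whose 2 changes lay nearest to those of each 3p form were sought among 423 with a mean of 10 RPM or more, by the Euclidean distance over the 2 steps in log2 units, so that each rests on the same 3 libraries. Nearest to miR-130a-3p were miR-351-5p, at a distance of 0.0255, and miR-467a-3p and miR-467d-3p, which had the same reads as each other at every age. Nearest to miR-301a-3p were miR-466e-5p (0.0272), miR-467a-5p (0.126) and miR-450a-5p (0.126). Fewer miRNAs lay close to the other forms. Within a distance of 0.25 there were 10 for miR-130a-3p and 14 for miR-301a-3p, but 1 for miR-130b-3p (miR-1306-3p) and 1 for miR-301b-3p (miR-92a-1-5p). After these came miR-92a-3p and miR-20b-5p for miR-130b-3p, and miR-16-1-3p and miR-224-5p for miR-301b-3p, at 0.277 to 0.323. Of the 12 named, 4 were among the nearest with a pseudocount of 5 RPM. Within the family, the closest pair was miR-130a-3p and miR-301a-3p, at 0.274.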

How the data were processed

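Small RNA of mouse retina was sequenced in 3 libraries, 1 pooled library for each age given by the labels. Reads of 50 nt were stripped of adaptors, filtered for quality and aligned to mm10 by the authors. The methods of the study name HISAT2, whereas the submitters' processing notes name BWA and FastQC, so the aligner is uncertain. The miRNA annotation and the counting rule are not given in the sources used here. The authors deposited the read counts of 1915 mature miRNAs and RPM values, which equal count over total within 0.0192 RPM. No value was changed.

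From these, log2(RPM + 1) differences were computed for miRNAs averaging 1 RPM or more. The fold criterion of 2 was applied without p-values. Intervals at 95% were Wilson (levels, shares), exact binomial (ratios of libraries) or exact conditional (changes of ratios). The members, lists and rules were chosen with earlier results of these data known, so the values are descriptions. The miRNAs named were the members, their seed relatives, the lists in the text, marker miRNAs, and for each 3p form the 3 nearest profiles. Sequences and positions came from RefSeq (GRCm38.p6) and GENCODE M21. Alternatives were pseudocounts of 0.1 and 5 RPM, no filter or 10 RPM, folds of 1.5 and 4, median-of-ratios size factors (1.50, 0.862 and 0.743 over 644 miRNAs), TMM factors (1.60, 0.808 and 0.774), library totals lacking each library's 10 most abundant miRNAs or lacking miR-183, miR-96 and miR-182, 0.5 reads added to each arm, and shares within all 8 members. The steps were tested on simulated data. Calculations ran in Python 3.11.15 (scipy 1.17.1, numpy 2.4.6, pandas 2.3.3), TMM in edgeR 4.0.16 under R 4.3.3, and plots in matplotlib 3.10.9.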

Additional observations from a re-analysis of the deposited data

How the results depend on the processing

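No paired analysis was possible because the ages had single libraries, and for the same reason no library could be left out. All 8 members kept a lower level at each later age under each pseudocount and scaling tried, and the arm ratio changes with 0.5 reads added to each arm, and the log2 ratios of P17 to P1 shares of the 3p forms taken within all 8 members, moved by less than their counting intervals. The sizes depended on the scaling, and the cause was not tested. The summed 3p forms changed by -1.73 from P1 to P7 and -3.04 from P1 to P17 with RPM, by -0.77 and -2.003 after median-of-ratios scaling, by -0.75 and -2.002 after TMM scaling, by -1.11 and -2.67 when each library's 10 most abundant miRNAs were left out of all totals, and by -1.33 and -2.65 when the totals left out the photoreceptor cluster (miR-182, miR-183 and miR-96). From P7 to P17 the summed 3p forms changed by -1.31 with RPM and by -1.56 without the 10 most abundant of each library. The change was -1.23 after median-of-ratios scaling, -1.25 after TMM scaling and -1.32 without the photoreceptor cluster. The first step was thus larger with RPM, and about equal to the second without the photoreceptor cluster. It was smaller than the second with the other scalings. The number of members over 2-fold lower at P7 than at P1 was 4 after median-of-ratios scaling and 4 after TMM scaling, against 8, and the number lower over 2-fold at each step was 3 with either against 6 (after TMM scaling 10.6% and 2.93% of all miRNAs were called). A fold criterion of 4 left 3 members from P1 to P7, 2 from P7 to P17 and 2 at each step, beside 8.64%, 2.16% and 1.23% of all miRNAs. From P7 to P17, 8 members were over 2-fold lower without each library's 10 most abundant miRNAs, against 6 with RPM, beside 23% of all miRNAs. With a pseudocount of 5 RPM there were 5, beside 6.79%. A pseudocount of 5 RPM kept 4 of the 12 nearest profiles. Of 144 alternative values for the changes of single members, 72 moved beyond counting error, 67 of them toward 0 and 5 away from it. Depth limits miR-130a-5p and both miR-301b forms most, with 19, 62 and 63 reads at P17.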

Other observations

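Marker miRNAs of other cell types were present in each library, and the summed level of none of the 4 lists below fell at both steps. That of the neural miRNAs miR-9-5p and miR-124-3p did (145803, 127817 and 86788 RPM), although miR-124-3p alone rose. The pigment epithelium miRNAs miR-204-5p and miR-211-5p summed to 15211, 7226 and 14334 RPM in the P1, P7 and P17 libraries, and miR-211-5p alone went from 550 to 259 and 5315 RPM. The blood miRNAs miR-451a, miR-144-3p and miR-486a-5p summed to 161, 116 and 157 RPM. The lens and cornea miRNAs miR-184-3p and miR-205-5p summed to 103, 119 and 570 RPM, nearly all of it miR-184-3p, since miR-205-5p had 31, 4 and 8 reads. The myeloid miRNAs miR-142a-3p and miR-223-3p summed to 7.09, 8.70 and 9.09 RPM, and miR-223-3p had 2, 3 and 7 reads. Their part in the changes of the family was not tested.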
